A study of Mus musculus with 6 samples.

Results

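The naive pluripotency transcription factors followed here are 10 genes taken by symbol from the deposited table of labelled-RNA counts: Nanog, Esrrb, Tbx3, Tfcp2l1, Prdm14, Zfp42, Nr5a2, Nr0b1, Gbx2 and Prdm1. They are a chosen set of transcription factors of the naive network, with the Krüppel-like factors left out. All 10 were found among the 25,899 symbols of the table. Of these, 9 passed the filter on low counts and were among the 13,869 genes tested, while Gbx2 did not pass. The cells were E14tg2a, a mouse embryonic stem cell line of 129SV background. All of them carried a stably integrated cRAF-ErT2 cassette, a RAF kinase fused to a hormone-binding domain that 4-hydroxytamoxifen (4OHT) switches on, and RAF in turn activates ERK. The treated group had 250 nM 4OHT for 2 h, and the other was left untreated. Both groups had been grown in serum with LIF plus the GSK3 inhibitor CHIR99021 at 2 µM. For the last 24 h both had serum, LIF and the FGF receptor inhibitor PD173074 at 250 nM. Ethynyl uridine at 5 mM was present for the final 15 min, so that the captured RNA is RNA made in that window. Clones a, b and c, each a separate line carrying the cassette, gave 1 library per group, so n is 3 in each. No library had 4OHT without the cassette, so effects of 4OHT itself and of ERK cannot be told apart.

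Naive pluripotency is the state of the epiblast before implantation, and stem cells keep it in culture under LIF and GSK3 inhibition. LIF acts through STAT3 on genes such as Tfcp2l1 and Gbx2, GSK3 inhibition relieves repression of Esrrb by TCF7L1, and the resulting factors bind and activate one another's genes. Signalling by FGF4 through ERK is known to move cells out of this state, which is why inhibitors of that pathway are used to hold it.

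Promoter sequences were read as a description only, and 8 members had windows in the RefSeq table of GRCm38.p6. Tbx3 and Prdm14 were not matched. The 250 bases upstream of a start site of Nanog, Esrrb and Prdm1, which fell, and of Zfp42, which rose, are shown because these genes moved in opposite directions, printed 5′ to 3′ on the gene's own strand. Capitals mark letters that matched any of 10 short motifs searched on both strands. The Nanog sequence is chr6:122707239-122707488 (plus strand), that of Esrrb chr12:86360867-86361116 (plus), that of Prdm1, at a start inside the annotated gene, chr10:44458749-44458998 (minus) and that of Zfp42 chr8:43307010-43307259 (minus).
Nanog: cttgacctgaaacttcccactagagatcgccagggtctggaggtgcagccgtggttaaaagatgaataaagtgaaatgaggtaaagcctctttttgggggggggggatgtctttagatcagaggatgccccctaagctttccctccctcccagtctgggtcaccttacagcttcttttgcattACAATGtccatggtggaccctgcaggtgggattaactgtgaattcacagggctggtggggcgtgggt
Esrrb: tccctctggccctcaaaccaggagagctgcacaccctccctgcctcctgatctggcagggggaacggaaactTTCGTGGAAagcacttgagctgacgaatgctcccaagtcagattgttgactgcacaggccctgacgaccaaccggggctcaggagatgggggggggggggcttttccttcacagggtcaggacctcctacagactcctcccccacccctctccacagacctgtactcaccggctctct
Prdm1: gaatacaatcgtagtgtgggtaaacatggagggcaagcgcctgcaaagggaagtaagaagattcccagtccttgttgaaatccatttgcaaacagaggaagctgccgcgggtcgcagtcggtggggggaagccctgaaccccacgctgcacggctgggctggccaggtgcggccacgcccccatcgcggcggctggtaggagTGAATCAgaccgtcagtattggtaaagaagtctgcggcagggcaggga
Zfp42: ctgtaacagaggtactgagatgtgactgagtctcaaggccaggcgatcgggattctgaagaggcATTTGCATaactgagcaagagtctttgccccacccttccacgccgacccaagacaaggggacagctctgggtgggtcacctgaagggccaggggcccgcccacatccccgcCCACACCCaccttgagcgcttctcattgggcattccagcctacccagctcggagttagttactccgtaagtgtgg

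In these windows of 300 bases, from 250 before to 50 after a start site, Nanog and Esrrb held the SOX motif CATTGT or its complement, which occurs in 12.6% of all 32,851 windows. In Nanog it began 67 bases before the start printed here and 143 bases before a second RefSeq start, in the stretch that is known as a composite element bound by OCT4 and SOX2. In Esrrb it began 33 bases after the start, beyond the bases printed, and a STAT motif (TTCNNNGAA, 8.30% of windows) began 178 bases before the start. Zfp42 held the octamer ATGCAAAT (1.74% of windows) and the Krüppel-like motif GGGTGTGG (3.56%), 186 and 75 bases before its RefSeq start, which lies just outside the span that GENCODE M21 gives the gene. Prdm1 held an AP-1 motif (TGANTCA, 7.81%) 48 bases before its start, and Gbx2 an E-box (CACGTG, 7.15%). The ETS motif CCGGAAGT (3.89% of windows), the EGR motif GCGTGGGCG (0.612%), the CRE TGACGTCA (1.79%) and the nuclear receptor site TCAAGGTCA (0.423%) were found in none of the 11 windows of members. The windows of Tfcp2l1, Nr5a2 and Nr0b1 held none of the 10. These are matches of letters only and were not tested.

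Library totals were 7,295,334 to 9,431,819 counts with 4OHT and 9,745,747 to 12,168,380 untreated. All 10 genes of a list of known ERK responders rose with 4OHT. The list was chosen with earlier results of these data known, so this is no independent check. Among them were the immediate early factors Egr1 (log2 fold change 5.86 ± 0.18, SE, n = 3 libraries per group) and Fos (4.98 ± 0.11). The feedback inhibitors Spry4 (5.16 ± 0.15) and Dusp6 (2.14 ± 0.09) were also on it. Across 13,869 tested genes 57.1% differed between 4OHT and untreated cells, 28.5% higher and 28.6% lower (edgeR quasi-likelihood test, adjusted p below 0.05). By library size alone, 2407 were higher and 5684 lower, against 3953 and 3968 with TMM scaling, and the median fold change of all tested genes was -0.20 (log2). Among other cell types, the summed level of 9 fibroblast and feeder markers was 21.2 to 26.0 CPM with 4OHT and 2.66 to 4.61 CPM untreated. CPM is the count relative to the TMM-scaled library size. Most of the sum with 4OHT was Twist1, at 15.8, 19.1 and 19.4 CPM in clones a, b and c. Of 3 tested, Twist1 (5.21 ± 0.29) and Col1a1 (3.45 ± 0.45) were the 2 that rose, and Pdgfra was not called (0.16 ± 0.38). Col3a1 and Dcn had no count with 4OHT and few untreated. Postn and Lum were at 0 in all 6 libraries. The part of these markers in the results on naive factors was not tested. The sums of 8 trophoblast markers (45.8 to 61.1 CPM with 4OHT, 42.9 to 60.3 untreated) and of 9 primitive endoderm factors (17.7 to 23.1 with 4OHT, 15.7 to 19.2 untreated) overlapped between groups. Of 6 tested trophoblast markers only Hand1 rose (2.41 ± 0.35), and of 3 tested endoderm factors 0 passed, or 2 with the clone block (Gata4 and Hhex, both higher). Fewer cells of a type and less RNA made per cell cannot be told apart in such bulk samples.

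Most naive factors fell in labelled RNA relative to other genes after 2 h of 4OHT. The scaling would hide a change shared by all genes. Of the 9 tested, 6 fell (Prdm14, Prdm1, Nanog, Tbx3, Esrrb and Tfcp2l1), Zfp42 rose, and Nr5a2 and Nr0b1 did not pass the test. That is 7 of 9 called, set against 57.1% of all tested genes, or 61.9% of the 9471 genes averaging at least 10 CPM, as all 9 do. The 6 of 9 that were lower stand beside 28.6% of all tested genes, and the 1 higher beside 28.5%. Their median log2 fold change was -1.32, beside -0.00054 over all tested genes. The members did not share one size of response, since the fitted levels with 4OHT ran from 24.1% of untreated for Prdm14 to 159% for Zfp42.

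**Figure D1:**
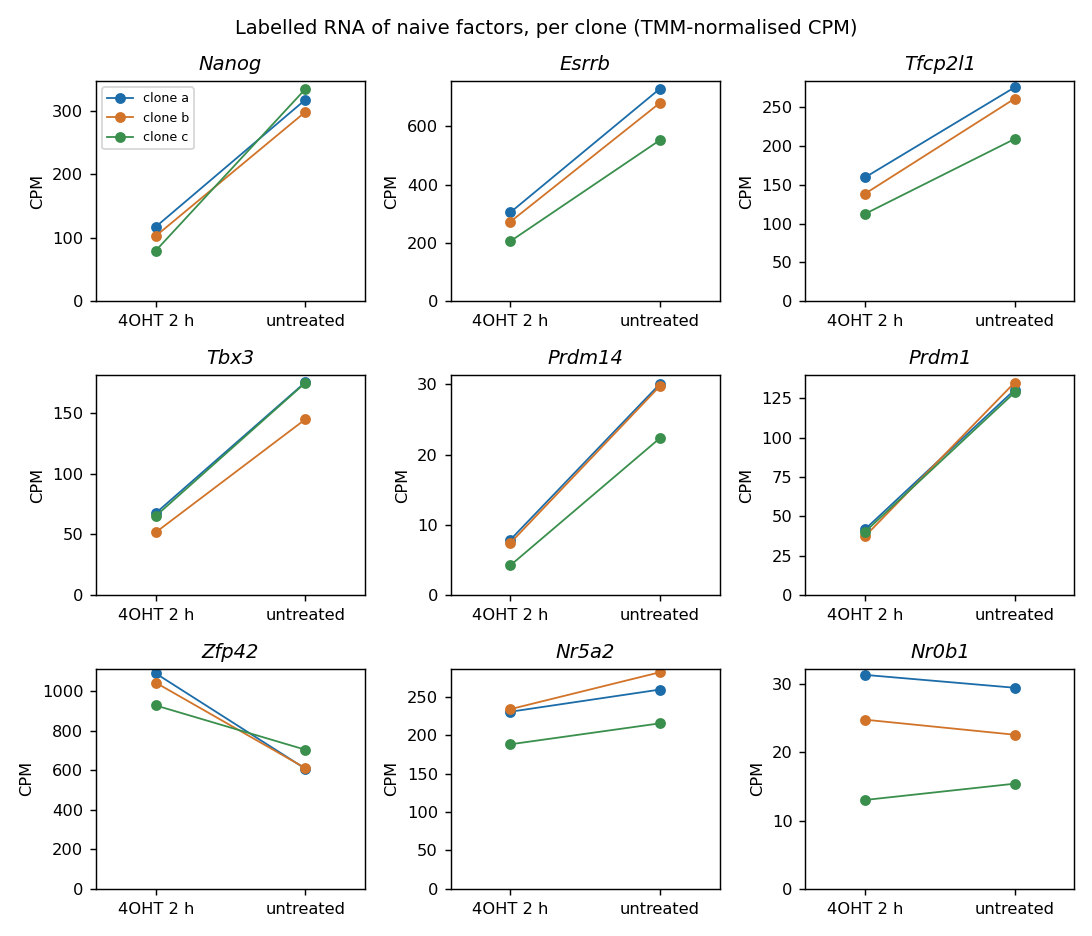
TMM-normalised CPM of 9 naive factors in each library, 4OHT for 2 h on the left and untreated on the right of each panel, with lines joining the 2 libraries of a clone and each vertical axis starting at 0. Lines climb toward the untreated side in every clone for the 6 genes that fell and drop for Zfp42, while Nr0b1 shows clones apart and little slope.

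Nanog, the homeobox factor at the centre of the network (chromosome 6, 122,707,489 to 122,714,633, GRCm38), had 117, 103 and 79.8 CPM in clones a, b and c with 4OHT, against 318, 298 and 335 CPM untreated. The highest treated library was far below the lowest untreated one. The log2 fold change was -1.66 ± 0.12 (adjusted p = 1.8e-06), which leaves 31.7% of the untreated level. Clone c moved most, by -2.07, against -1.43 in clone a and -1.53 in clone b, although its untreated level was the highest of the 3. Only 2.88% of tested genes ranked at or below Nanog in fold change.

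Esrrb (chromosome 12, 86,361,117 to 86,521,628), an orphan nuclear receptor that can stand in for Nanog in self-renewal, had 305, 273 and 206 CPM with 4OHT and 729, 680 and 553 CPM untreated in clones a, b and c. Groups did not overlap, and clone c was lowest in both. Its log2 fold change was -1.32 ± 0.14 (adjusted p = 2.8e-05), and the 3 clones moved by -1.26, -1.32 and -1.42. Esrrb is among the long members, with a span of 160.5 kb.

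Tfcp2l1 (chromosome 1, 118,627,945 to 118,685,168), a grainyhead-type factor downstream of LIF and STAT3, fell the least of the 6. It had 159, 138 and 113 CPM with 4OHT against 275, 261 and 209 CPM untreated, again with clone c lowest in both groups and no overlap between them. The log2 fold change of -0.86 ± 0.13 (adjusted p = 0.00031) put it at 55.2% of the untreated level. Small annotated RNA genes and a pseudogene lie within its span but have no row of their own in the table.

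Tbx3 (chromosome 5, 119,670,669 to 119,684,724), a T-box factor that helps hold stem cells undifferentiated, had 67.4, 51.6 and 65.0 CPM with 4OHT and 175, 145 and 175 CPM untreated. Here clone b, not c, was lowest in both groups. Its log2 fold change was -1.42 ± 0.11 (adjusted p = 3.3e-06), and the clones moved by -1.37, -1.48 and -1.42. The start of Tbx3 overlaps the antisense gene Tbx3os1. Since strand use is not given in the sources used here, reads from both cannot be told apart there.

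The PR-domain factors, known for specifying germ cells, had the lowest fold changes of the 9. Prdm14 (chromosome 1, 13,113,457 to 13,127,163), which restrains FGF signalling and DNA methyltransferases in stem cells, had 7.88, 7.42 and 4.24 CPM with 4OHT, against 30.1, 29.8 and 22.3 CPM untreated. These rest on 69, 60 and 29 counts with 4OHT and 375, 392 and 228 untreated. The log2 fold change was -2.05 ± 0.20 (adjusted p = 1.4e-05), and 1.44% of tested genes ranked at or below it. Prdm1 (chromosome 10, 44,437,177 to 44,528,501), the repressor BLIMP1, had 41.8, 37.4 and 40.2 CPM with 4OHT against 130, 135 and 129 CPM untreated. Clones lay close together in both groups, and the log2 fold change of -1.72 ± 0.07 (adjusted p = 4.8e-08) had the smallest error of the 9.

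Zfp42 (REX1, chromosome 8, 43,295,063 to 43,306,980), a zinc-finger factor of the YY1 family widely used to report the naive state, went the other way. It had 1090, 1043 and 928 CPM with 4OHT and 608, 611 and 704 CPM untreated, so that every treated library exceeded every untreated one. Its log2 fold change was 0.67 ± 0.09 (adjusted p = 1.0e-04), or 1.59 times the untreated level, and 0.47 by library size alone. The rise was 0.84 in clone a, 0.77 in clone b and 0.40 in clone c. GENCODE M21 lists processed pseudogenes for Zfp42 and Nanog that have no row in the table, and how reads shared with them were counted is not given.

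**Figure D2:**
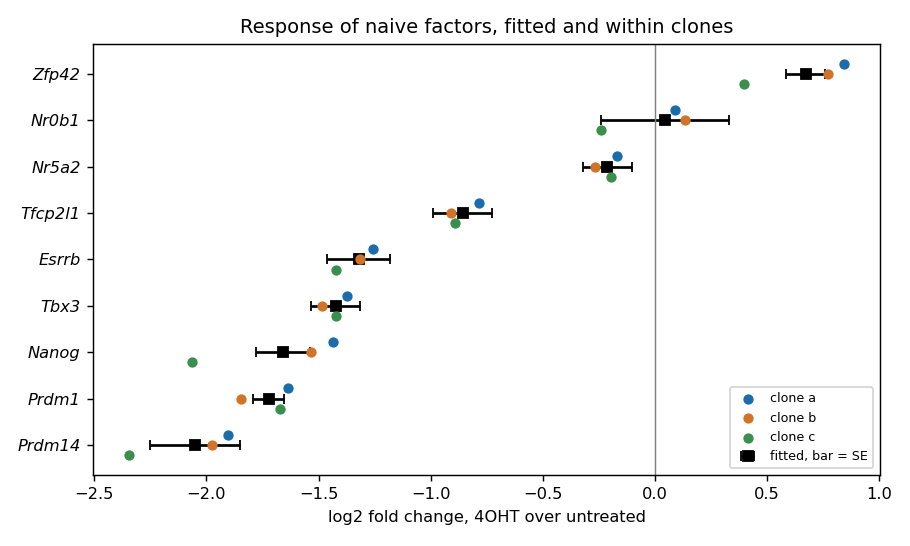
Log2 fold change of 4OHT over untreated for each tested naive factor, ordered from highest to lowest; squares are the fitted values with their SE (n = 3 libraries per group) and coloured points the difference within each clone. Zfp42 at 0.67 stands alone on the right, Nr0b1 and Nr5a2 lie near 0, and the other 6 lie between -0.86 and -2.05.

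The other nuclear receptors did not pass the test. Nr5a2 (LRH-1, chromosome 1, 136,842,571 to 136,960,448), an activator that binds regulatory DNA of Pou5f1, had 231, 234 and 188 CPM with 4OHT and 259, 282 and 216 CPM untreated. The groups overlapped, and the log2 fold change was -0.21 ± 0.11 (95% interval -0.46 to 0.03, adjusted p = 0.12). With clone as a replicate block its fold change was the same size, -0.21 ± 0.04, but passed the test (edgeR adjusted p = 0.00022). Clones a, b and c moved by -0.17, -0.27 and -0.20. In that fit 8 of 9 members were called, beside 67.4% of all tested genes. Nr5a2 also passed by library size alone (-0.42, adjusted p = 0.010), without untreated clone c (-0.33, adjusted p = 0.010) and without both libraries of clone c (-0.25, adjusted p = 0.00076).

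Nr0b1 (DAX1, chromosome X, 86,191,764 to 86,195,947), a receptor-like corepressor without a DNA-binding domain of the usual kind, had 31.3, 24.7 and 13.01 CPM with 4OHT and 29.4, 22.5 and 15.4 CPM untreated. The groups overlapped, and in both clone a was highest and clone c lowest. With clone as a replicate block its log2 fold change was 0.03 ± 0.10 (edgeR adjusted p = 0.77). In the main fit, which has no clone term, the error was larger, at 0.05 ± 0.29 (95% interval -0.59 to 0.68, adjusted p = 0.90). That wider interval holds the fitted rise of Zfp42 but not the fitted fall of Tfcp2l1. The sign turned by library size alone (-0.16), without the treated library of clone a (-0.24) and without the untreated library of clone c (-0.17), and it was -0.0023 without clone a and -0.0050 without clone b.

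Gbx2 (chromosome 1, 89,927,956 to 89,931,179), a homeobox factor that LIF induces, was close to the limit of these libraries. It had 5, 4 and 3 counts with 4OHT and 14, 15 and 5 counts untreated, where a count of 3 stands for 0.247 to 0.411 CPM. The depth-scaled ratio of the summed counts was 0.534, with an exact 95% binomial interval of 0.252 to 1.06 that covers counting error only. Fitted without the filter it gave -0.88 ± 0.52 (adjusted p = 0.19). Without the untreated library of clone c, the lowest of its group, the log2 fold change was -1.16 ± 0.41. Gbx2 then passed the filter only through the untreated libraries of clones a and b, so no conclusion is drawn from that fit. It overlaps D130058E05Rik, which has no row in the table.

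**Figure D3:**
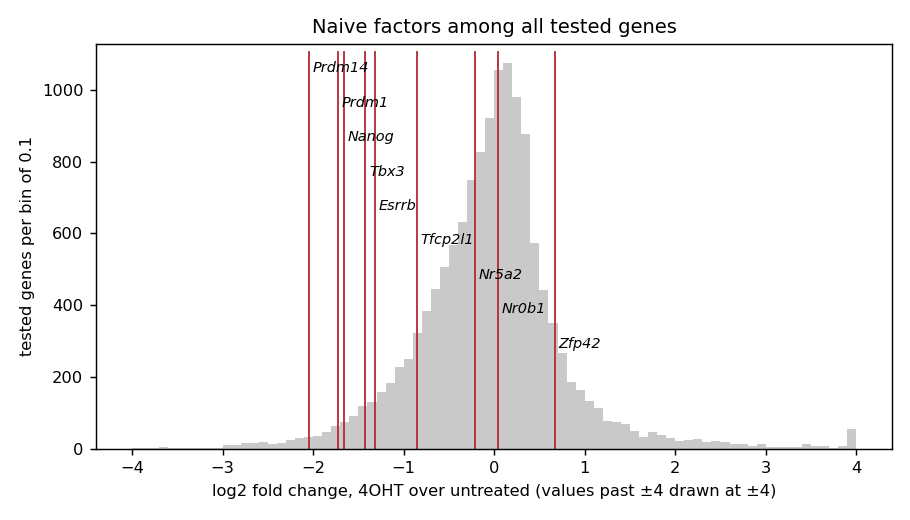
Number of tested genes per bin of 0.1 in log2 fold change (4OHT over untreated), with a red line at each naive factor. Prdm14, Prdm1, Nanog, Tbx3 and Esrrb lie in the left tail, at -1.32 or below, and Zfp42 on the right shoulder at 0.67.

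Levels can be set between genes only per length. Per kb of gene span, Zfp42 (85.6 ± 6.99 CPM per kb with 4OHT, 53.8 ± 4.57 untreated; SD, n = 3) and Nanog (14.0 ± 2.66 with 4OHT, 44.4 ± 2.53 untreated) were the highest in both groups. Their order was the same in both groups, with a wider gap between them with 4OHT. Tbx3 (4.36 ± 0.606 with 4OHT, 11.7 ± 1.24 untreated) and Nr0b1 (5.50 ± 2.21 with 4OHT, 5.37 ± 1.68 untreated) came next, with Tbx3 the higher untreated and the 2 genes within their spread with 4OHT. Esrrb (1.63 ± 0.314 with 4OHT, 4.07 ± 0.567 untreated) and Tfcp2l1 (2.39 ± 0.411 with 4OHT, 4.34 ± 0.610 untreated) did not differ from each other beyond their spread untreated. Prdm1 was lowest (0.436 ± 0.0246 with 4OHT, 1.44 ± 0.0358 untreated), and with 4OHT did not differ beyond its spread from Prdm14 (0.475 ± 0.145 with 4OHT, 2.00 ± 0.319 untreated). Nr5a2 had 1.85 ± 0.216 with 4OHT and 2.14 ± 0.287 untreated. Whether exons or whole genes were counted is not given. Per kb of exon, Zfp42 led (542 ± 44.3 CPM per kb with 4OHT, 341 ± 29.0 untreated). Nanog (44.6 ± 8.47 with 4OHT, 141 ± 8.06 untreated), Esrrb (43.2 ± 8.34 with 4OHT, 108 ± 15.1 untreated) and Nr5a2 (36.9 ± 4.32 with 4OHT, 42.8 ± 5.73 untreated) followed, and with 4OHT these 3 did not differ beyond their spread. Nanog thus had the next highest mean after Zfp42 on either length, while the order of the members below it rests on the length used.

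Several naive factors differed in level between the 3 clones, in a test over both conditions together. When both clone terms were tested together in the fit with treatment, 6 of the 9 members differed between clones: Esrrb (adjusted p = 3.7e-05), Nr0b1 (4.1e-05), Tfcp2l1 (8.2e-05), Nr5a2 (0.00035), Tbx3 (0.0022) and Prdm14 (0.024). The same test called 12.6% of all tested genes and 17.0% of those averaging at least 10 CPM. Nr0b1 in clone c stood at 41.6% of clone a with 4OHT and 52.3% untreated. Esrrb in clone c stood at 67.6% of clone a with 4OHT and 75.8% untreated, and Tfcp2l1 in clone c at 70.6% with 4OHT and 75.9% untreated. Prdm14 in clone c was at 53.8% of clone a with 4OHT and 74.3% untreated, and Nr5a2 at 81.6% with 4OHT and 83.1% untreated. Tbx3 differed in clone b instead, at 76.6% of clone a with 4OHT and 82.6% untreated.

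Nanog, Zfp42 and Prdm1 were not called between clones (adjusted p = 0.47, 0.96 and 0.95). For Prdm1 all ratios to clone a lay between 89.4% and 104%. Nanog and Zfp42 instead changed order: in clone c Nanog was at 68.0% of clone a with 4OHT but 105% untreated, and Zfp42 at 85.1% with 4OHT but 116% untreated. Clone c also stood apart over all genes: pairs of libraries of 1 group that include it gave a chi-square per gene of 5.38 to 11.3, against 2.29 and 2.44 for clone a with clone b. Whether 4OHT acted differently in clone c cannot be tested with 1 library per clone and condition.

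**Figure D4:**
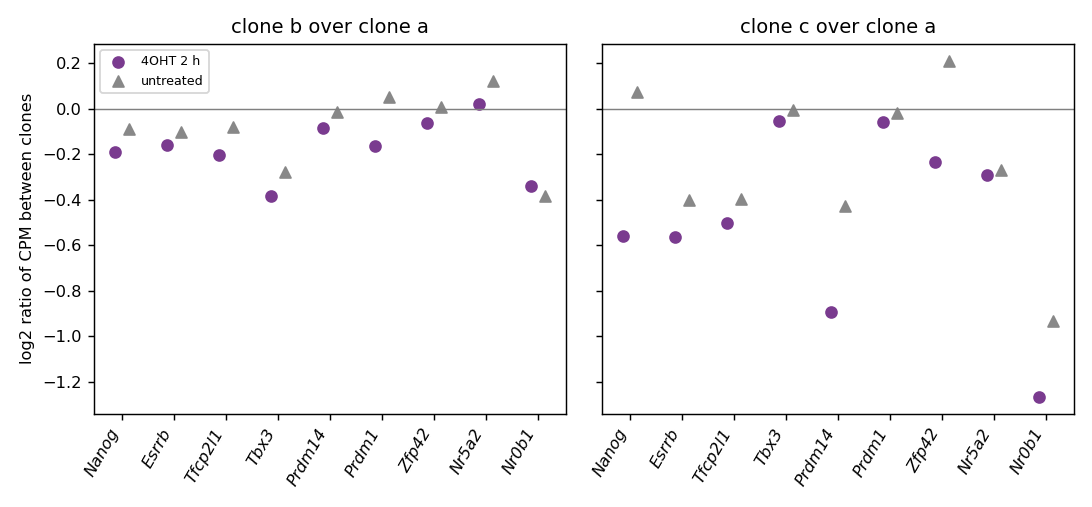
Log2 ratio of CPM between clones for each tested naive factor, clone b over clone a in the left panel and clone c over clone a in the right panel, with circles for 4OHT and triangles for untreated libraries. Clone c lies below 0 in both conditions for Esrrb, Tfcp2l1, Prdm14, Nr5a2 and Nr0b1, close to 0 for Tbx3 and Prdm1, and on both sides of 0 for Nanog and Zfp42.

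Other genes of the pluripotent network were counted from lists, to be read beside the 28.5% higher and 28.6% lower of all tested genes and their median of -0.00054. Of the 3 Krüppel-like factors of the network, Klf2 (-1.11 ± 0.13) and Klf4 (-0.66 ± 0.07) fell and Klf5 rose (1.21 ± 0.07). Among 16 other naive markers, which include the zinc-finger factor Zscan10, 10 fell, 1 rose and 5 did not pass, with a median of -0.65. With the clone block 12 fell and 2 rose. The FGF ligand Fgf4 had 48.1 ± 5.64 CPM with 4OHT and 267 ± 24.1 CPM untreated (-2.47 ± 0.10). The NODAL co-receptor Tdgf1 (-1.33 ± 0.08) and the F-box gene Fbxo15 (-1.33 ± 0.11) fell as well, and the lysosomal enzyme gene Manba rose (1.37 ± 0.12). Of 8 germ cell genes 3 fell and 1 rose: the RNA-binding factor Nanos3 (-1.72 ± 0.18), the receptor kinase Kit (-1.21 ± 0.19) and Tfap2c (-0.72 ± 0.12), a partner of Prdm1 and Prdm14 in germ cell specification, were lower, and Dazl (1.19 ± 0.29) was higher at 2.80 ± 0.362 CPM with 4OHT and 1.19 ± 0.375 CPM untreated.

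Core and shared pluripotency factors went both ways, with 6 of 13 higher, 4 lower and a median of 0.14. By library size 3 were higher and 5 lower and the median turned to -0.05. Pou5f1 had 225 ± 13.6 CPM with 4OHT and 175 ± 1.10 CPM untreated (0.36 ± 0.06), a rise not called by library size (0.16, adjusted p = 0.055). Sox2 had 265 ± 21.9 CPM with 4OHT and 273 ± 3.43 CPM untreated (-0.04 ± 0.07, edgeR adjusted p = 0.63), and passed the test as lower by library size (-0.24, adjusted p = 0.014). Sall4 fell (-1.15 ± 0.07), while Dppa2 (0.97 ± 0.09) and Dppa4 (0.86 ± 0.07) rose. Of 13 tested formative and primed epiblast factors 7 rose and 4 fell, with a median of 0.53, or 6 and 5 with a median of 0.33 by library size. The ETS factor Etv4 (3.44 ± 0.18), Pou3f1 (2.52 ± 0.17) and Sox4 (1.17 ± 0.08) rose and Foxp1 fell (-1.21 ± 0.10). Otx2, a driver of the exit from naive pluripotency, had 26.3 ± 9.46 CPM with 4OHT and 27.5 ± 5.67 CPM untreated (-0.06 ± 0.23, adjusted p = 0.85). With the clone block its log2 fold change was -0.07 ± 0.10 (edgeR adjusted p = 0.56). The early endoderm factor Gata6 had 1.76 ± 0.259 CPM with 4OHT and 2.67 ± 0.529 CPM untreated (-0.60 ± 0.26, adjusted p = 0.072), and passed the test as lower by library size (-0.80, adjusted p = 0.023).

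On the LIF and WNT route into the network, 6 of 13 genes rose and 4 fell, with a median of -0.03, or 5 and 6 with a median of -0.23 by library size. The kinases that LIF receptors use rose steeply: Jak1 had 419 ± 56.9 CPM with 4OHT and 50.3 ± 2.25 CPM untreated (3.06 ± 0.10), and Jak2 rose by 2.36 ± 0.08. The receptor gene Lifr (-0.47 ± 0.10) and the repressor gene Tcf7l1 (-0.44 ± 0.11), named after their values were seen, fell. Stat3, also so named, was not called (-0.07 ± 0.06), but passed the test as lower by library size (-0.27, adjusted p = 0.0041). Tcf7, a WNT effector, rose (1.58 ± 0.08), and the STAT3 target Pim3 fell (-1.22 ± 0.10). Other STAT3 targets on the list, named after their values were seen, rose: Pim1 by 1.09 ± 0.10, and Socs3 by 0.34 ± 0.10, a rise not called by library size (0.14, adjusted p = 0.24). Of 17 tested paralogues, relatives of the members by sequence, 5 rose, 6 fell and 6 did not pass, with a median of 0.06, or 2 and 6 with a median of -0.14 by library size. Yy1, a relative of Zfp42, rose (0.57 ± 0.07), and Tfcp2, a relative of Tfcp2l1, fell (-0.67 ± 0.11). Among PR-domain genes Prdm16 fell (-1.23 ± 0.18). Others, named after their values were seen, rose while Prdm14 and Prdm1 fell: Prdm10 by 0.35, Prdm15 by 0.31 and Prdm2 by 0.24, none of them called by library size. Esrra, a relative of Esrrb, had a log2 fold change of 0.06 and was not called.

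**Figure D5:**
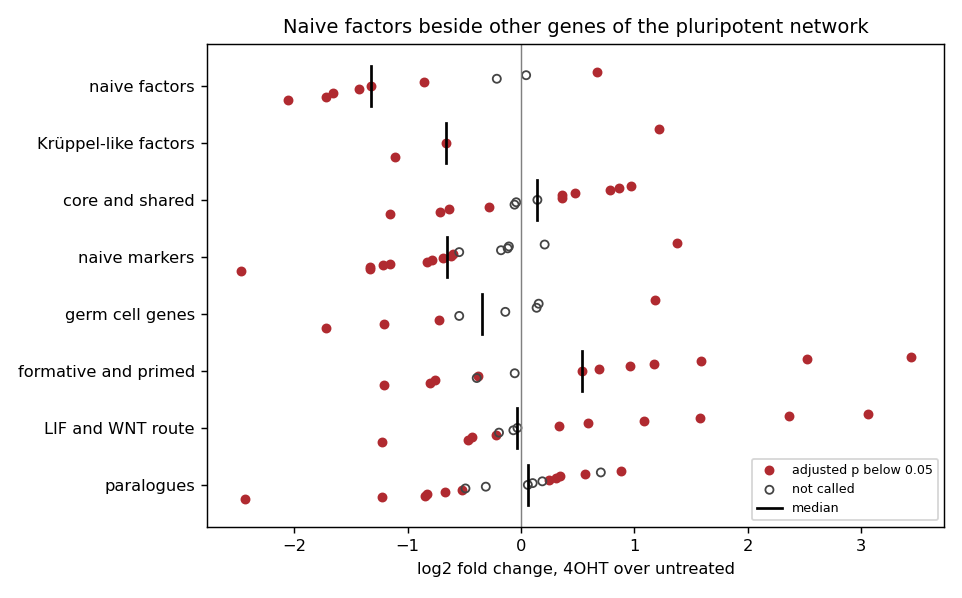
Log2 fold change (4OHT over untreated) of every tested member of 8 gene lists, filled where the adjusted p was below 0.05 and open where not, with a bar at each list's median. The naive factors have the lowest median at -1.32, the Krüppel-like factors and naive markers have -0.66 and -0.65, and the formative and primed factors lie highest at 0.53.

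Taking the nearest tested gene on each side of every member, 8 of 20 were higher, 5 lower and 7 not called, beside 28.5% higher and 28.6% lower of all tested genes. Many of these genes are far from the member, with gaps from 11.9 kb to 1628.5 kb. Values near 0.20 in size are as small as the shift between TMM and library-size scaling. Prdm14 lies between Slco5a1 (1.03, 120.8 kb away) and Ncoa2 (0.66, 11.9 kb away), which both rose (adjusted p = 0.00043 and 2.8e-05) while Prdm14 fell. Beside Nanog, neither the germline gene Dppa3 (-0.54, adjusted p = 0.068, or 0.033 with the clone block) nor the glucose transporter gene Slc2a3 (-0.04, adjusted p = 0.76) was called. Tbx3 fell between Med13l (0.21, 905.2 kb away) and Rbm19 (0.66, 431.7 kb away), which rose. Esrrb fell between Gpatch2l, which rose (0.29), and Vash1, which fell (-0.92). The neighbours Gli2 of Tfcp2l1 (-1.80) and Prep of Prdm1 (-1.16, 538.7 kb away) fell, while Clasp1 (0.15) and Atg5 (-0.12) on their other sides were not called. Both neighbours of Zfp42, Triml2 (0.05) and Fat1 (0.21, 1628.5 kb away), were not called. Nr5a2 lies between Zfp281 (0.36) and Ptprc (4.64, 1102.4 kb away), which rose, Nr0b1 between Gk (0.23, not called) and Il1rapl1 (0.38, higher), and Gbx2 between Agap1 (-0.68) and Ackr3 (-1.33), which fell. The 3 genes whose levels followed Nanog most closely over the 6 libraries were Greb1l, Nkiras2 and Napepld, each with Pearson's r of 0.999, a description dominated by the step between the 2 groups. Their log2 fold changes were -0.74 ± 0.09, -0.42 ± 0.11 and -1.03 ± 0.11.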

How the data were processed

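RNA labelled with ethynyl uridine was captured by click chemistry and sequenced from NEB Next Ultra 2 libraries, per the labels' protocols. STAR, featureCounts and the mm10 build were used, per the submitters' processing notes; of versions, settings, strand use and the counted feature, the sources used here say nothing. The authors deposited raw counts, whole numbers per gene symbol, with no normalization.

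Members and lists were chosen with earlier results of these data known. Columns were tied to samples by clone letter and time. Genes kept by filterByExpr (minimum count 10, minimum total 15) were tested in edgeR 4.0.16 (R 4.3.3) with TMM scaling and the quasi-likelihood test, 3 against 3 libraries with no clone term, and adjusted by Benjamini-Hochberg. Each ± on a fold change is an SE (its size over the square root of F), and on CPM an SD over 3 libraries. Log2 CPM within clones used a prior count of 2. No label says whether clones were cultured apart. The p-values reflect the spread among these libraries, which includes differences between clones and may in part be technical. No 2 libraries of a group agreed within counting noise (chi-square per gene 2.29 to 11.3).

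Libraries are paired by clone, as titles in both groups carry its letter; the correlation of deviations from the group mean was 0.282 for clone a, 0.165 for b and 0.357 for c. Alternatives were DESeq2 1.42.0, limma-voom (limma 3.58.1), other scalings, filters and thresholds, a clone block, and each library or clone left out. Positions came from GENCODE M21 (GRCm38, the assembly of mm10), sequences from RefSeq GRCm38.p6. The text names, whatever their values, all members, Egr1, Fos, Dusp6, Spry4, Klf2, Klf4, Klf5, Pou5f1, Sox2, Otx2 and Gata6, the nearest tested neighbours and the 3 genes most correlated with Nanog, plus up to 4 called genes of each list ranked by adjusted p. Other genes were named after their values were seen. Of the genes this rule names, 2 list genes are not reported here. The fit was tested on simulated data.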

Additional observations from a re-analysis of the deposited data

Results flagged for a closer look

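Among members and other genes named whatever their values, 3 had 1 clone moving against the other 2, and the difference between clones was not tested because each clone has 1 library per condition. Nr0b1 differed by -0.24 (log2 CPM, 4OHT minus untreated) in clone c, against 0.09 and 0.13 in clones a and b. Otx2 differed by -0.48 in clone c, against 0.04 and 0.08 in clones a and b. Sox2 differed by 0.052 in clone a, against -0.01 and -0.18 in clones b and c. None of these 3 genes was called between 4OHT and untreated cells.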

How the results depend on the processing

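The fold changes of Nanog (-1.86 to -1.51), Esrrb (-1.52 to -1.17), Tbx3 (-1.62 to -1.31), Tfcp2l1 (-1.06 to -0.73), Prdm14 (-2.25 to -1.84), Prdm1 (-1.92 to -1.66) and Zfp42 (0.47 to 0.78) kept their direction and stayed called at an adjusted p below 0.05 in all 18 alternatives each. Nr5a2 passed the test by library size (-0.42), with the replicate block in edgeR (-0.21) and DESeq2 (-0.21), and without the untreated or both libraries of clone c; leaving out libraries or clones gave -0.33 to -0.12. Nr0b1 was called in none of its 18, turned negative by library size (-0.16) and ran from -0.24 to 0.32 with libraries or clones left out; it was negative without the treated library of clone a, the untreated library of clone c, both of clone a or both of clone b. The cause was not tested beyond the fewer libraries. Requiring a log2 fold change of at least 1 left 947 genes higher and 1324 lower, with 5 members lower and 0 higher, since Zfp42 (0.67) is under that size. By library size 2407 genes were higher and 7 members lower. The replicate block changed the call of no member other than Nr5a2. The 6 clone differences among members stayed 6 by library size and with no filter. Levels per kb moved for all 18 values with exon length in place of span, as the lengths differ. Depth limits Gbx2, which did not pass the filter on low counts.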
